A study of Homo sapiens with 8 samples.

Results

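The genes examined here were the CDK inhibitor genes of the human genome that carry a CDKN symbol: CDKN1A, CDKN1B and CDKN1C of the CIP/KIP family, CDKN2A, CDKN2B, CDKN2C and CDKN2D of the INK4 family, and CDKN3. They were chosen by gene name, 8 of the 60282 genes in the count table, and all 8 passed the filter on low expression that left 14073 genes for testing. SK-UT-1, an established human uterine leiomyosarcoma cell line, was treated with TP-472 at 5 µM for 48 h or with DMSO vehicle, in 4 replicate libraries per group. TP-472 is a small molecule that inhibits BRD9, a subunit of a SWI/SNF chromatin remodelling complex, and the series description also names BRD7. The methods of the study speak of biological replicates for its experiments in general, and the sample descriptions do not say whether these libraries came from separate cultures, so p-values measure the spread between these libraries, which may be technical. Total counts ran from 32574716 to 38545695 per library, and levels are given as CPM, the count divided by the TMM-scaled library size and brought to a common scale for all libraries.

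Progression through the cell cycle is driven by cyclin-dependent kinases (CDKs) bound to cyclins. Proteins of the CIP/KIP family bind complexes of cyclins with several CDKs, and are best known for inhibiting cyclin E/CDK2 at entry into S phase. Proteins of the INK4 family bind CDK4 and CDK6 and keep them from D-type cyclins, which leaves RB proteins active and E2F target genes repressed. CDKN3 differs from both families, since it encodes KAP, a phosphatase that removes an activating phosphate from CDK2, and its mRNA is known to be cell cycle regulated.

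Vehicle replicate 3 stood apart from the other vehicle libraries. Its median Spearman correlation with its own group was 0.914, against 0.988 to 0.989 for the other vehicle libraries and 0.993 to 0.997 for the TP-472 libraries. Replication-dependent histone genes took 1.38% of its counts, against 0.968% to 1.01% in the other vehicle libraries and 0.728% to 0.836% with TP-472. Values without it are given for the CDK inhibitor genes and for named genes whose call or direction it moves. As to the labelled origin of the cells, the smooth muscle marker ACTA2 was expressed at 160.3 CPM on average in vehicle, DES at 3.25 CPM and MYH11 at 0.00703 CPM, near 0. The summed level of 8 smooth muscle markers was 437.7 to 520.4 CPM in the vehicle and 370.1 to 379.1 CPM in the TP-472 libraries, and of the 6 that could be tested TAGLN and DES were lower, joined by ACTA2 without vehicle replicate 3 (log2 fold change −0.59). Endothelial markers (3 genes) summed to at most 0.581 CPM and leukocyte markers (4 genes) to at most 1.07 CPM in any library. Epithelial markers (5 genes, of which KRT18 and KRT19 were highest) summed to 17.5 to 26.8 CPM over the libraries, with KRT18 higher and KRT19 lower with TP-472. Of 7 fibroblast markers, 4 were lower with TP-472, and their sum, mostly COL1A2 and COL3A1, went from 1020.2 to 1164.4 CPM in vehicle down to 238.0 to 262.7 CPM, while DCN and LUM were at or near 0. The part of these changes in the results below was not tested. BRD9 itself was at 80.1 ± 23.1 CPM in vehicle and 71.5 ± 3.17 CPM with TP-472 (SD, n = 4 each), and its log2 fold change was −0.16 (adjusted p = 0.486 from edgeR). Vehicle replicate 3 was the highest library at 114.5 CPM, and without it the log2 fold change was 0.058. BRD7 was at 56.2 and 60.8 CPM on average (adjusted p = 0.324 from edgeR).

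To see how the CDK inhibitor genes responded to TP-472, the quasi-likelihood test of edgeR was run on all 14073 genes. Differential expression was called where the adjusted p was below 0.05 and the change exceeded 1.5-fold. CDKN1A was higher in TP-472-treated cells, CDKN1B, CDKN2C and CDKN2D were lower, and CDKN1C, CDKN2A, CDKN2B and CDKN3 did not pass. Thus 1 of the 8 genes rose and 3 fell, while 26.9% of all genes tested were differentially expressed, 12% higher and 14.9% lower. The counts for the 8 genes were the same without vehicle replicate 3, when 25.5% of all genes were differentially expressed. The median log2 fold change of all genes tested was −0.026, and the middle 50% of them lay between −0.47 and 0.35. Only 69 genes had a higher log2 fold change than CDKN1A, and 406 genes had a lower one than CDKN1B. The vehicle and TP-472 ranges were separate for 45.4% of all genes tested (23.8% higher and 21.6% lower with TP-472), and among the 8 genes for CDKN1A, CDKN1B, CDKN2C, CDKN2D and CDKN3.

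**Figure D1:**
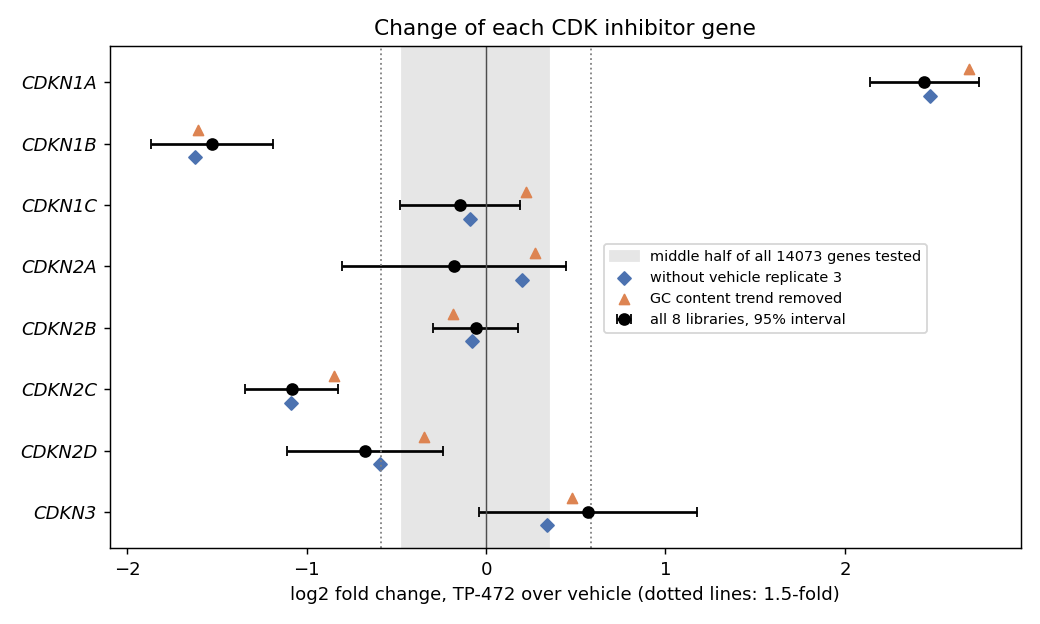
Log2 fold change of each gene, TP-472 over vehicle, with its 95% interval from edgeR (black), the value without vehicle replicate 3 (diamonds) and the value after removal of the GC content trend (triangles), over a grey band that spans the middle 50% of all genes tested. CDKN1A lies at 2.44, CDKN1B at −1.53 and CDKN2C at −1.08, beyond the dotted lines of a 1.5-fold change under all 3 settings, while the CDKN2D value moves inside them when the GC trend is removed.

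In the CIP/KIP family, CDKN1A and CDKN1B moved in opposite directions. CDKN1A (ENSG00000124762.14) encodes p21, a CDK inhibitor best known for cell cycle arrest after DNA damage, and lies on the plus strand of chromosome 6 from 36676460 to 36687339 (GRCh38). It was measured at 3.44, 4.48, 4.26 and 3.77 CPM in vehicle replicates 1 to 4 and at 19.9, 23.0, 23.1 and 20.7 CPM in TP-472 replicates 1 to 4. The lowest TP-472 library was more than 4 times the highest vehicle library, and vehicle replicate 3 was in the middle of its group. This is a 5.44-fold increase (log2 fold change 2.44 with standard error 0.135, edgeR adjusted p = 2.06e-05), with a 95% interval of 2.14 to 2.75 on the log2 scale. Counts of 124 to 156 per vehicle library and 768 to 831 per TP-472 library stood behind these levels. A culture was measured in bulk, so a change in the share of cells that express a gene and a change of its mRNA in each cell cannot be told apart.

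The stretch before the start site of CDKN1A is shown because the gene had the largest change of the family, with its 2 GC boxes in capitals. It covers chr6:36678464-36678657 on the plus strand of GRCh38.p14 and comes from the RefSeq promoter table, cut where the window meets an exon of CDKN1A itself in GENCODE release 29. This start lies inside the annotated gene, downstream of its first exon, and the bases up to 36678559 also belong to an exon of the noncoding gene DINOL on the minus strand.
CDKN1A: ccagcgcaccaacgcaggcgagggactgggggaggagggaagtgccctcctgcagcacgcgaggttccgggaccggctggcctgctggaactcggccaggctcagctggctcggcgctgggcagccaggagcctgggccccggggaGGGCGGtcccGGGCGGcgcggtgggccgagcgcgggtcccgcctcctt
The GC box, GGGCGG on either strand, is the motif bound by SP1 and related factors. The full window of 300 bases around this start site held 4 of them and no TATA box (TATAAA on either strand), and its GC content was 74.3%. Of all 35116 windows in the table, 45.0% held at least 1 GC box and 15.8% held at least 3. These matches describe the sequence only. The table had an entry for 7 of the 8 genes.

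CDKN1B (ENSG00000111276.11) encodes p27, which restrains CDK2 in quiescent cells, and lies on the plus strand of chromosome 12 from 12715058 to 12722371. Its level was 83.9, 108.3, 73.3 and 102.4 CPM in vehicle replicates 1 to 4 and 33.2, 31.1, 35.8 and 27.6 CPM in TP-472 replicates 1 to 4. Vehicle replicate 3 was the lowest of its group, yet it was still at more than 2 times the highest TP-472 library. The gene fell by 1.53 on the log2 scale (standard error 0.151, adjusted p = 2.36e-04 from edgeR), and vehicle cells held 2.88 times the level of treated cells. Without vehicle replicate 3 the decrease was larger (log2 fold change −1.62). The promoter window of CDKN1B held 3 CCAAT boxes (CCAAT on either strand), where 3.26% of all windows held at least 3, and 1 GC box. Its bases lie almost entirely within an exon annotated in GENCODE release 29 and are not printed.

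CDKN1C (ENSG00000129757.13) encodes p57, the product of an imprinted gene on chromosome 11 (2883213 to 2885773, minus strand). Vehicle replicates 1 to 4 were at 3.16, 3.36, 3.56 and 2.70 CPM, and their TP-472 counterparts at 2.82, 2.87, 2.97 and 2.88 CPM. The TP-472 libraries fell within the vehicle range. A log2 fold change of −0.15 resulted (adjusted p = 0.455 from edgeR), and its 95% interval of −0.48 to 0.19 did not reach a 1.5-fold change in either direction. When the trend with GC content was removed the sign changed to 0.22 (adjusted p = 0.423, where all alternatives spanned 0.301 to 0.865).

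**Figure D2:**
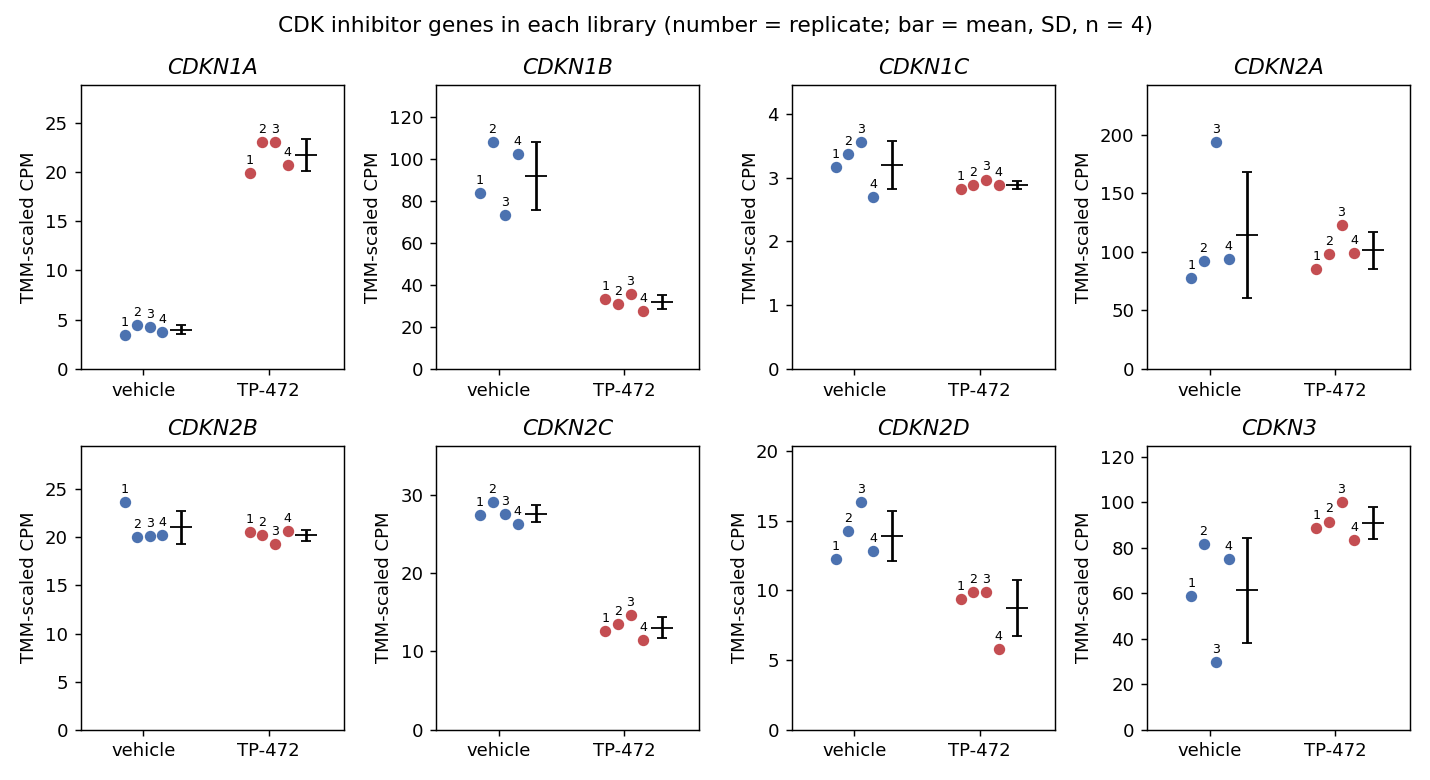
TMM-scaled CPM of the 8 genes in each library, with the replicate number at each point and the mean ± SD of each group beside it (n = 4). CDKN1A stands between 19.9 and 23.1 CPM with TP-472 and between 3.44 and 4.48 CPM with vehicle, and vehicle replicate 3 is the highest vehicle library for CDKN2A and the lowest for CDKN3.

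Since CDKN1A and CDKN1B changed in opposite directions, the composition of the family changed as well. CDKN1B took 92.6 ± 1.59% of the counts of the CIP/KIP genes in vehicle and 56.4 ± 2.63% in TP-472-treated cells, while CDKN1A went from 4.09 ± 0.789% to 38.4 ± 2.41% (SD, n = 4 each). CDKN1C contributed 3.31 ± 0.829% and 5.13 ± 0.350%. These shares do not depend on how libraries are scaled, and after division by exon length those of CDKN1A were 3.76% and 36.3%. The ratio of CDKN1A to CDKN1B counts was, in replicate order, 0.0411, 0.0415, 0.0582 and 0.0369 in the vehicle libraries and 0.600, 0.739, 0.644 and 0.752 in the TP-472 libraries. It was thus 15.6-fold higher with TP-472, above every vehicle library in 4 of 4 TP-472 libraries, which follows from the opposite and complete separation of both genes and is given as a description. The 3 genes summed to 99.2 ± 16.1 CPM in vehicle and 56.5 ± 4.37 CPM with TP-472 (SD, n = 4 each), so that the gain of CDKN1A in CPM was smaller than the loss of CDKN1B.

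**Figure D3:**
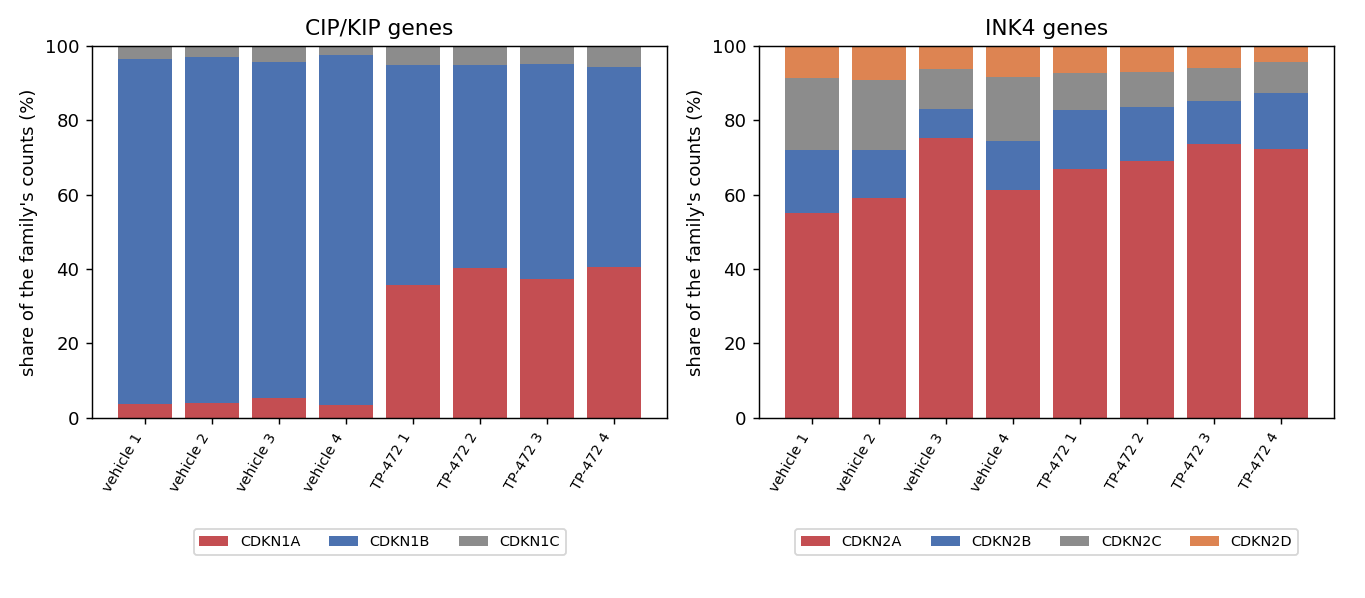
Share of each family's counts taken by each gene, in percent, for each of the 8 libraries. CDKN1A takes 3.46% to 5.24% of the CIP/KIP counts in the vehicle bars and 35.6% to 40.5% in the TP-472 bars, and CDKN2A is the largest share of the INK4 counts in every library.

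In the INK4 family, 2 of 4 genes, CDKN2C and CDKN2D, were lower with TP-472 and none was higher, where 14.9% of all genes tested were lower. The counts were the same at an unadjusted p-value under 0.05 in edgeR, where 25.5% of all genes tested were lower. They were also the same with DESeq2 and limma-voom, and with quality weights in limma-voom 1 gene was lower. CDKN2C (ENSG00000123080.12; plus strand of chromosome 1, 50960745 to 50974633) encodes p18, an inhibitor of CDK4 and CDK6. It was measured at 27.5, 29.1, 27.6 and 26.3 CPM in vehicle replicates 1 to 4 and at 12.6, 13.5, 14.6 and 11.4 CPM in TP-472 replicates 1 to 4. The vehicle libraries differed little from each other, replicate 3 included, and all lay far above the TP-472 libraries. The decrease was 2.12-fold (log2 fold change −1.08 with standard error 0.114, edgeR adjusted p = 2.94e-04). After removal of the GC content trend the log2 fold change was −0.85 (adjusted p = 0.00309, where all alternatives spanned 2.20e-14 to 0.0187).

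CDKN2D (ENSG00000129355.7; minus strand of chromosome 19, 10566462 to 10569059) encodes p19, the INK4 protein known to rise in S phase. Vehicle replicates 1 to 4 were at 12.2, 14.3, 16.3 and 12.8 CPM and TP-472 replicates 1 to 4 at 9.40, 9.87, 9.85 and 5.76 CPM. The groups did not overlap, but TP-472 replicate 4 was well below the other treated libraries. The gene fell by 0.67 on the log2 scale (standard error 0.193, edgeR adjusted p = 0.0253), with a 95% interval of −1.11 to −0.24. Without vehicle replicate 3 the log2 fold change was −0.59, just past the 1.5-fold limit (adjusted p = 0.0155 from edgeR). Without TP-472 replicate 4 it was −0.52 and under the 1.5-fold limit (adjusted p = 0.0356). Without TP-472 replicate 1 it was −0.72, so the fold did not shrink, but the adjusted p-value was 0.0529. After removal of the GC content trend it was −0.34 and no longer passed (adjusted p = 0.175, where all alternatives spanned 6.29e-04 to 0.243).

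The stretches before the annotated starts of the INK4 genes that fell are shown for comparison with CDKN1A, from the same table and cut in the same way, with GC boxes in capitals. That of CDKN2C is chr1:50960495-50960744 on the plus strand, the first of 3 starts in the table for this gene, and counts summed by gene do not tell which start was used. That of CDKN2D is chr19:10569060-10569229 and is written on the minus strand.
CDKN2C: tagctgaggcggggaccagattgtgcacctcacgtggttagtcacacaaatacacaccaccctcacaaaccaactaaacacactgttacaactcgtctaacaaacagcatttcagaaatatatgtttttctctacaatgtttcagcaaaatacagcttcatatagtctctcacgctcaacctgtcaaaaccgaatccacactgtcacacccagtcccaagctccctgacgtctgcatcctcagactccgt
CDKN2D: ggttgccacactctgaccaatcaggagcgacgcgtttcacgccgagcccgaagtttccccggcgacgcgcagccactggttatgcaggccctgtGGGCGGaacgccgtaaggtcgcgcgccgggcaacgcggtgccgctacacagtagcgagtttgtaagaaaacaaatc
In their order along the chromosome, the windows of the 3 CDKN2C starts held 0, 6 and 1 GC boxes, and their GC content was 46.3%, 71.3% and 49.3%. The CDKN2D window held 3 GC boxes and 1 CCAAT box, a motif found in 34.6% of all windows. GC boxes were present in windows of CDKN1A, of genes that fell, and of CDKN2A and CDKN2B, which did not pass, while the CDKN3 window held none.

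CDKN2A and CDKN2B are neighbours on the minus strand of chromosome 9, at 21967753 to 21995301 and 22002903 to 22009363. CDKN2A (ENSG00000147889.17) encodes p16 and, through another first exon and reading frame, the unrelated protein ARF, which the counts by gene do not separate. Its level was 77.9, 91.9, 194.1 and 93.9 CPM in vehicle replicates 1 to 4 and 85.5, 97.8, 122.7 and 98.8 CPM in TP-472 replicates 1 to 4. Vehicle replicate 3 was at 2.21 times the mean of the other vehicle libraries, and the remaining 7 libraries overlapped. The log2 fold change of −0.18 (adjusted p = 0.633 from edgeR) had a wide 95% interval of −0.80 to 0.45. With vehicle replicate 3 left out the value was 0.20 (adjusted p = 0.170, where all alternatives spanned 0.0506 to 0.809), and it was also above 0 with that library kept after removal of the GC content trend (0.27).

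CDKN2B (ENSG00000147883.12) encodes p15, known as a TGF-beta response gene. It was at 23.6, 20.1, 20.2 and 20.2 CPM in vehicle replicates 1 to 4 and at 20.6, 20.3, 19.3 and 20.6 CPM in TP-472 replicates 1 to 4, so that vehicle replicate 1 alone stood out. Its log2 fold change was −0.058 (adjusted p = 0.681 from edgeR), and the 95% interval of −0.29 to 0.18 did not reach a 1.5-fold change. CDKN2B lies inside the span of CDKN2B-AS1, a noncoding gene on the other strand. Whether their exons overlap was not examined. Reads from any shared exon sequence can be told apart only as far as the counting used strand. CDKN2B-AS1 was at 31.1 CPM in vehicle and 21.7 CPM with TP-472 on average. Its log2 fold change of −0.52 (adjusted p = 0.0393 from edgeR) stayed under the 1.5-fold limit, and at −0.59 without vehicle replicate 3 it passed.

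CDKN2A held the largest share of the INK4 counts in every library, 62.7 ± 8.69% in vehicle and 70.5 ± 3.12% with TP-472 (SD, n = 4 each). The share of CDKN2C was 16.5 ± 3.98% and 9.13 ± 0.667%. Neither ratio computed within the family passed its test. The ratio of CDKN2A to CDKN2B was 3.30 to 9.61 in vehicle and 4.16 to 6.34 with TP-472 (two-sided exact permutation test, p = 0.914). That of CDKN2C to CDKN2D was 1.69 to 2.25 in vehicle and 1.34 to 1.98 with TP-472 (two-sided exact permutation test, p = 0.0571 and 0.0762 adjusted over 4 ratios).

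CDKN3 (ENSG00000100526.20; plus strand of chromosome 14, 54396849 to 54420218) had higher values in treated cells without passing the test. Vehicle replicates 1 to 4 were at 58.8, 81.7, 29.6 and 74.8 CPM and TP-472 replicates 1 to 4 at 88.5, 91.5, 99.9 and 83.6 CPM. The lowest TP-472 library lay just above the highest vehicle library, and vehicle replicate 3 was at 0.412 times the mean of the other vehicle libraries. On the log2 scale the estimated difference was 0.57 (standard error 0.269, edgeR adjusted p = 0.124). Leaving out vehicle replicate 3 gave 0.34, below the 1.5-fold limit, with an adjusted p-value of 0.0240 (where all alternatives spanned 0.00389 to 0.237). Its promoter window held 2 CCAAT boxes and 1 copy of the CHR element (TTTGAA on either strand), a motif of late cell cycle genes that 15.2% of all windows held.

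CDKN3 was also set against CDK1, the mitotic kinase, whose mRNA is likewise cell cycle regulated. The ratio of CDKN3 to CDK1 counts was, in replicate order, 0.266, 0.288, 0.285 and 0.282 in the vehicle libraries and 0.529, 0.512, 0.561 and 0.526 in the TP-472 libraries. Vehicle replicate 3 lay within the range of its group here, and its levels of both genes were the lowest of the group. The ratio was 1.90-fold higher with TP-472 in 4 of 4 libraries (two-sided exact permutation test, p = 0.0286, which is the lowest value 70 assignments can give, and 0.0571 adjusted over the 4 ratios). CDK1 alone was at 218.5 ± 80.9 CPM in vehicle and 170.8 ± 9.57 CPM with TP-472 (SD, n = 4 each), and edgeR gave it a log2 fold change of −0.36 (adjusted p = 0.314). Without vehicle replicate 3, CDK1 was called lower (log2 fold change −0.59, adjusted p = 4.27e-04 from edgeR).

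**Figure D4:**
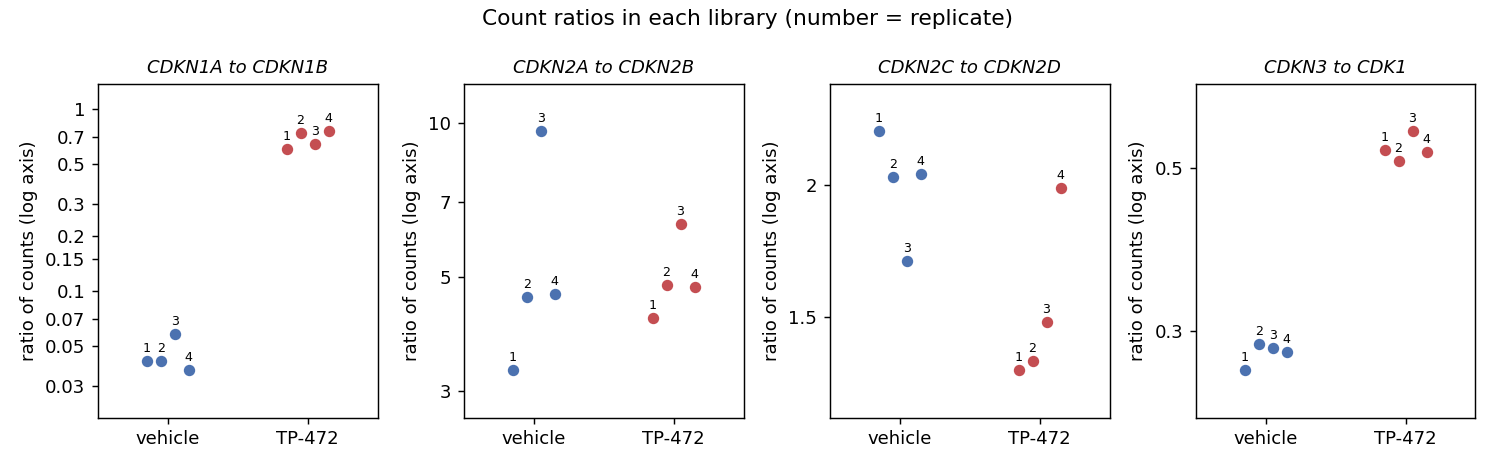
Ratio of the counts of 2 genes in each library, on a log axis, with the replicate number at each point. The ratios of CDKN1A to CDKN1B and of CDKN3 to CDK1 separate the groups (CDKN3 to CDK1 is 0.266 to 0.288 with vehicle and 0.512 to 0.561 with TP-472), and the other ratios overlap.

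Levels of different genes were compared as CPM per kb of annotated exon. In vehicle-treated cells CDKN3 (33.4), CDKN1B (32.7) and CDKN2A (26.4) were the highest, and their ranges over the libraries overlapped. CDKN2D (9.26) and CDKN2C (8.32) came next and overlapped each other, followed by CDKN2B (5.18). CDKN1A (1.31) and CDKN1C (1.29) were lowest, and their ranges overlapped. In TP-472-treated cells the order was CDKN3 (49.5), CDKN2A (23.4), CDKN1B (11.4), CDKN1A (7.11), CDKN2D (5.80), CDKN2B (4.98), CDKN2C (3.93) and CDKN1C (1.16). The first 4 of these did not overlap each other, CDKN2D overlapped CDKN1A, CDKN2B and CDKN2C, and CDKN1C was below all others. CDKN1A thereby moved from the level of CDKN1C to above that of CDKN2C. With the median length of the coding transcripts in place of exon length, CDKN2A was first in both groups (140.6 and 124.3 CPM per kb). In vehicle, CDKN1B (102.5) then came before CDKN3 (72.5) and CDKN2C (13.2) before CDKN2D (11.1), and with TP-472 CDKN2B (8.47) came before CDKN2D (6.95).

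For each gene, the genes with the most similar pattern were those with the smallest root mean square difference in log2 CPM over the 8 libraries, after centring each gene on its mean. For CDKN1A they were CRISPLD2 (0.16), AHR (0.18) and MSX2 (0.19). AHR, the aryl hydrocarbon receptor, went from 0.787 to 4.31 CPM on average. In vehicle, AHR and MSX2 (0.604 CPM) averaged under the filter limit of 1 CPM. Both thus were among the genes compared only through the TP-472 libraries. For CDKN1B they were BTN3A3 (0.10), EMCN (0.12) and SMIM14 (0.13), and for CDKN2C CD99L2 (0.056), SLCO5A1 (0.086) and USP18 (0.096). CDKN2D was closest to CCDC28B (0.093), IFI27L2 (0.094) and CAPG (0.13). CDKN3 was closest to PSMD6 (0.039), SMIM30 (0.044) and SELENOT (0.044), and CDKN2A, with its high value in vehicle replicate 3, to MIF (0.093), PLEKHF1 (0.12) and H1-10 (0.13). For CDKN1C and CDKN2B, whose levels varied little, the nearest genes were YBEY (0.065) and CASC3 (0.047).

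The kinases and cyclins that these inhibitors bind were taken next. Of 12 genes (CDK1, CDK2, CDK4, CDK6, D-, E-, A- and B-type cyclins and PCNA), 2 were higher, none was lower in edgeR and 10 did not pass, with a median log2 fold change of 0.31 against −0.026 for all genes tested. At an unadjusted p-value under 0.05, 4 were higher and 1 was lower, where 22.3% of all genes tested were higher and 25.5% lower. DESeq2 also called 2 and 0, and limma-voom with quality weights called 1 and 1. Here and in the lists that follow, called counts stand beside the 12% higher and 14.9% lower of all genes. Counts at an unadjusted p-value stand beside the 22.3% and 25.5%. CCND1, which encodes cyclin D1, the partner of CDK4 and CDK6, rose from 126.9 ± 25.4 to 261.2 ± 14.8 CPM (SD, n = 4 each; log2 fold change 1.04, adjusted p = 0.00106 from edgeR). CCNE1, the gene of cyclin E1, rose from 24.1 ± 3.14 to 37.8 ± 1.81 CPM (log2 fold change 0.65, adjusted p = 0.00388 from edgeR, n = 4 each). The kinases had log2 fold changes of 0.096 for CDK4, 0.0078 for CDK6 and −0.31 for CDK2, none past the threshold. Without vehicle replicate 3 the value for CDK6 was −0.14, and CDK1 was called lower (log2 fold change −0.59).

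Downstream of the kinases, 1 of 13 genes of the RB family and the E2F and DP factors was higher and 3 were lower (median −0.23). RBL2, the gene of the RB relative p130, fell from 60.4 ± 6.53 to 28.96 ± 1.72 CPM (SD, n = 4 each; log2 fold change −1.06, adjusted p = 2.99e-04 from edgeR). E2F7, a repressor of E2F target genes, and TFDP2, a dimer partner of E2F factors, fell by 0.89 and 0.87 on the log2 scale. E2F6 was called higher at 0.69, but at 0.52 without vehicle replicate 3 it was under the fold limit. Its call was also lost without vehicle replicate 1, without each TP-472 library in turn, and with quality weights in limma-voom. RB1 itself was at 9.77 ± 2.47 and 7.99 ± 1.34 CPM (SD, n = 4 each; adjusted p = 0.305 from edgeR).

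**Figure D5:**
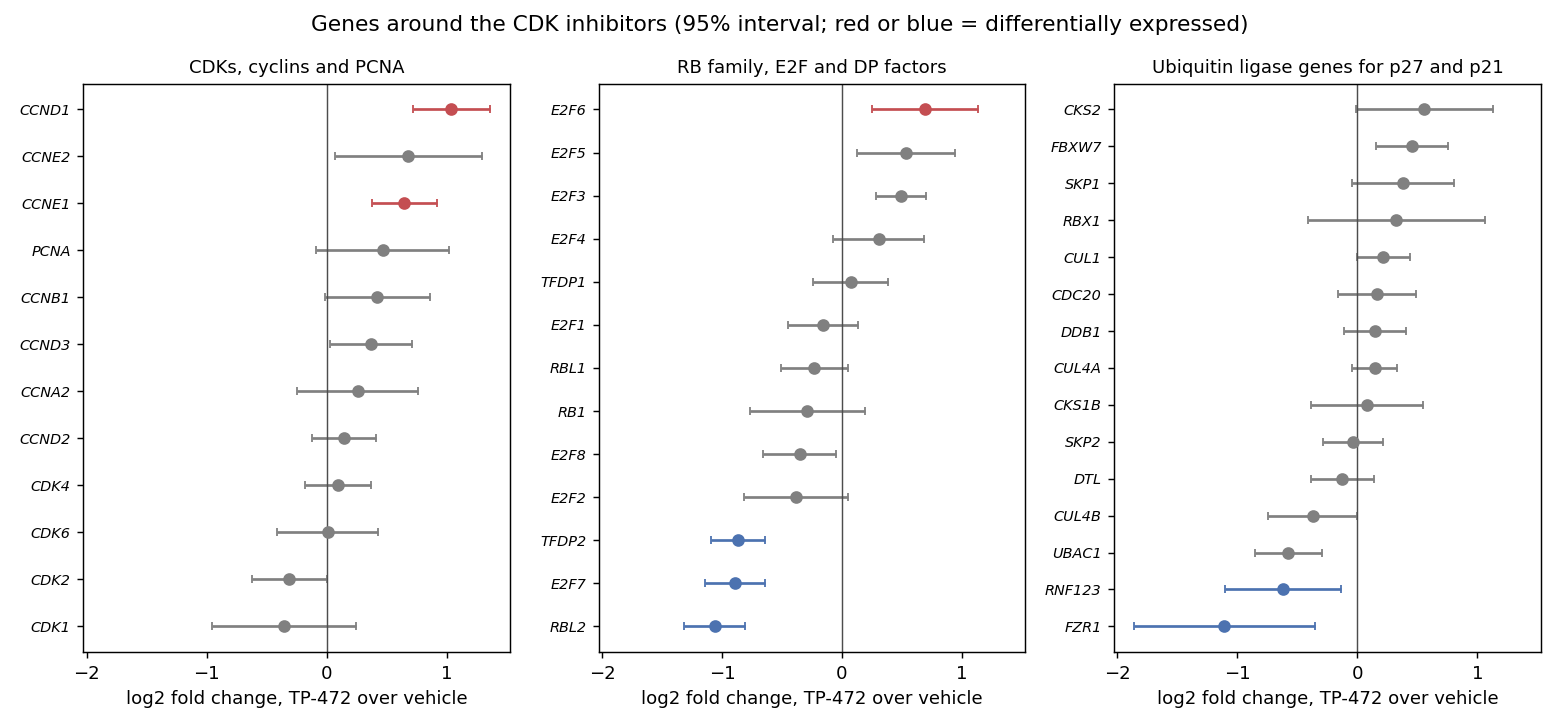
Log2 fold change, TP-472 over vehicle, with 95% intervals for CDKs and cyclins, RB and E2F genes, and the list of ubiquitin ligase and related genes linked to p27 and p21. Red and blue points passed the test as higher or lower (CCND1, CCNE1 and E2F6 against RBL2, E2F7, TFDP2, FZR1 and RNF123) and grey points did not.

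The proteins p27 and p21 are marked for degradation by ubiquitin ligases. The list used here held genes of such ligases, their cofactors and related ligase subunits. Not every member acts on p27 or p21 directly or promotes their loss, so the direction of a change does not tell its effect on them. Of these 15 genes none was higher and 2 were lower in edgeR, at a median log2 fold change of 0.14. At an unadjusted p-value under 0.05 in edgeR, 1 was higher and 4 were lower, where 22.3% and 25.5% of all genes tested were. DESeq2 also called 0 and 2. By contrast, limma-voom called 0 and 1, and 0 and 0 with quality weights. SKP2, which recognizes p27, was at 109.8 ± 13.7 and 106.8 ± 2.97 CPM (SD, n = 4 each; log2 fold change −0.040, adjusted p = 0.791 from edgeR). The 2 lower genes were FZR1 (log2 fold change −1.11) and RNF123 (−0.62). In both, vehicle replicate 3 was the highest library, at 131.5 CPM for FZR1 and 73.0 CPM for RNF123, and without it the values were −0.59 and −0.34, the latter no longer called. Neither gene was called with quality weights in limma-voom, after removal of the GC content trend, or without TP-472 replicate 1 or 4.

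Of the 20 genes reported here from a list of CIP/KIP regulators, 1 was higher and 1 was lower (median log2 fold change −0.078). Other genes of the list, some of them called lower, are not reported. CEBPA, a transcription factor linked to p21, rose from 0.632 ± 0.144 to 2.26 ± 0.196 CPM (SD, n = 4 each; log2 fold change 1.84, adjusted p = 3.86e-04 from edgeR). In vehicle it lay under the filter limit of 1 CPM. It thus entered the test, and the count of higher genes, only through the TP-472 libraries, and its test is given as a description. MDM4 fell by 0.69 on the log2 scale (adjusted p = 0.00937 from edgeR). FOXO3, an activator of CDKN1B, had a log2 fold change of 0.060 (adjusted p = 0.707 from edgeR). Without vehicle replicate 3, 5 of these genes were called higher in place of 1, with EGR1, KLF4, MYC and CEBPB in addition to CEBPA, and MDM4 was still lower.

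Of 21 Polycomb and other regulators known for the INK4 genes, 2 were higher and 2 lower (median −0.096). CBX7, a Polycomb repressor of CDKN2A, fell from 12.7 ± 6.68 to 3.68 ± 0.426 CPM (SD, n = 4 each; log2 fold change −1.79, adjusted p = 0.00339 from edgeR), and EZH1 fell by 0.71. ETS1 and ETS2, known as activators of CDKN2A, rose by 0.96 and 1.03. EZH2 and BMI1 had log2 fold changes of 0.16 and 0.57 and did not pass. Without vehicle replicate 3, EZH2 was at −0.0060 and JUNB, at 0.67, was called higher, which made 3 higher and 2 lower. The targets of the pathway were divided by phase. Of 20 E2F-driven G1/S genes, CDC25A (1.02), CDC6 (0.83) and CCNE1 rose and none fell in edgeR (median 0.20). At an unadjusted p-value under 0.05 in edgeR, 9 were higher and 0 lower, where 22.3% and 25.5% of all genes tested were. DESeq2 called 3 and 0. Of 24 G2/M genes none passed in either direction in edgeR (median −0.078) or with DESeq2, and 1 was higher and 3 were lower at an unadjusted p-value under 0.05. Without vehicle replicate 3, CDK1 and NUSAP1 were called lower, and limma-voom with quality weights called 3 lower.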

How the data were processed

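RNA from SK-UT-1 cells was measured in 4 vehicle and 4 TP-472 libraries, and all were used. According to the methods of the study the libraries were strand-specific, while the sample descriptions name a TruSeq RNA kit; how strand entered the counting is not given in the sources used here. The authors estimated transcript abundance with salmon 1.4.0 on GRCh38 and summed it to genes with tximport and GENCODE release 34, so the values deposited by the authors are estimated counts, neither scaled nor filtered. The counts were rounded. Genes above 1 CPM in 4 or more libraries entered a fit of treatment alone in edgeR 4.0.16 (R 4.3.3), with TMM scaling, a quasi-likelihood F test and p-values adjusted by Benjamini-Hochberg over all of them. The limits on adjusted p-value and fold are those of the study, which names no test for the RNA-seq comparison. Ratios used exact two-sided permutation tests over 70 assignments, with 0.5 added to each count. The genes named are the CDKN genes, genes of a list in the sentences on it, the closest patterns, and BRD9 and BRD7. All of these, and the lists themselves, were chosen with earlier results of these data known, which included the behaviour of vehicle replicate 3. Log2 CPM for patterns used a prior count of 2. Coordinates and exon lengths come from GENCODE release 29, joined by gene identifier without its version.

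No library was a copy of another (lowest mean chi-square between a pair 11.3, near 1 for copies). Alternatives were DESeq2 1.42.0, limma-voom (limma 3.58.1) with and without quality weights, other scalings and filters, unrounded counts, a correction for GC content (available for 99.3% of the genes tested), the replicate number as a block, other fold limits and each library left out. Their use on the gene lists was added after seeing the data. Some genes of the lists, and a list that rests on them, are not reported here.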

Additional observations from a re-analysis of the deposited data

Results flagged for a closer look

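In 16 groups of 4 libraries (8 genes in 2 treatments), 3 held a library far from the other 3 by Dixon's criterion, which chance alone exceeds in about 1 of 20 groups. CDKN2A was at 194.1 CPM in vehicle replicate 3, where the nearest vehicle library was at 93.9 CPM. CDKN2B was at 23.6 CPM in vehicle replicate 1 and at no more than 20.2 CPM in the other vehicle libraries. CDKN2D was at 5.76 CPM in TP-472 replicate 4 and at no less than 9.40 CPM in the other treated libraries.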

How the results depend on the processing

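Of 160 values of the 8 genes recomputed under 12 alternatives and with each of 8 libraries left out, 148 kept their direction and call, 5 lost the call and 7 changed sign. CDKN1A (2.38 to 2.50 with any 1 library left out), CDKN1B (−1.62 to −1.44) and CDKN2C (−1.14 to −1.03) kept both throughout. CDKN2D lost its call with quality weights in limma-voom (log2 fold change −0.51) and with the GC correction (−0.34, also −0.34 with the replicate block). It also lost it without TP-472 replicate 4 (−0.52) and without TP-472 replicate 1, where the fold did not shrink (−0.72). In these settings 2 genes rather than 3 were lower. Over all libraries left out CDKN2D ran from −0.74 to −0.52. A test against 1.5-fold also left 2. The sign changed for CDKN1C with the GC correction (0.22, and 0.26 with the block), for CDKN2A with quality weights (0.10), with the GC correction (0.27, also 0.27 with the block) and without vehicle replicate 3 (−0.32 to 0.20), and for CDKN2B without vehicle replicate 1 (−0.080 to 0.0027). The ratio of CDKN2A to CDKN2B had a log2 difference of −0.036, and −0.25 to 0.27 with a library left out. Over all genes, DESeq2 with its own filter, which left 24115 genes in place of 14073, called 2666 higher and 2880 lower, the test against 1.5-fold called 529 higher and 594 lower, and leaving out a library gave 1303 to 1824 higher and 1387 (without TP-472 replicate 3) to 2399 lower. The cause of these differences was not tested, except that fewer libraries or more genes entered some fits. Replicate numbers did not pair the libraries (correlations of same-numbered libraries from −0.18 to 0.12). With the replicate block CDKN1A was at 2.45, CDKN1B at −1.52 and CDKN2D at −0.70, and no call of the 8 genes changed. Over all genes 1500 were higher and 1555 lower with the block, against 1693 and 2096 without it. Counts per library were lowest for CDKN1C (96 to 123) and for CDKN1A in vehicle (124 to 156), so counting error is larger there than for the other genes. Over the same alternatives, other fold limits and libraries left out, the calls within the gene lists, higher and lower in turn, ran from 1 to 4 and 0 to 1 for the kinases and cyclins (2 and 0 as reported), 0 to 3 and 3 to 3 for the RB and E2F genes (1 and 3), 0 to 1 and 0 to 3 for the ligases (0 and 2), 1 to 5 and 0 to 4 for the CIP/KIP regulators (1 and 1, over the genes reported), 1 to 3 and 1 to 4 for the INK4 regulators (2 and 2), 1 to 6 and 0 to 0 for the G1/S genes (3 and 0), and 0 to 1 and 0 to 3 for the G2/M genes (0 and 0).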

Other observations

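The genes around CDKN1C and CDKN1A were listed by position, within 500 kb on either side. Near CDKN1C, in the imprinted region of chromosome 11, 2 of 9 tested neighbours were higher and 3 lower, where 12% and 14.9% of all genes tested were. The higher ones were PHLDA2 and ZNF195 (0.62), and without vehicle replicate 3 ZNF195 was under the fold limit (0.54) and TSSC4 was called higher (0.71). PHLDA2, a growth-restraining imprinted gene that neighbours CDKN1C, was at 0.720, 0.948, 1.88 and 0.618 CPM in vehicle replicates 1 to 4 and at 4.61, 4.37, 4.83 and 4.39 CPM in TP-472 replicates 1 to 4 (log2 fold change 2.12, adjusted p = 0.00173 from edgeR). In vehicle only replicate 3 was above the filter limit of 1 CPM. PHLDA2 thus entered the test, and the count of higher neighbours, through the TP-472 libraries, and its test is given as a description. SLC22A18 fell by 1.68 and OSBPL5 by 1.41 on the log2 scale, both with their highest level in vehicle replicate 3, and without it the log2 fold changes were −1.17 and −0.89, both still called. KCNQ1OT1, the antisense RNA of this region, was at 607.0 ± 196.0 CPM in vehicle and 345.6 ± 83.7 CPM with TP-472 (SD, n = 4 each; log2 fold change −0.81, adjusted p = 0.0344 from edgeR), with the groups overlapping. Near CDKN1A, 1 of 8 tested neighbours was higher (SRSF3, 0.65, and 0.47 and under the fold limit without vehicle replicate 3) and 2 were lower (PIM1, −1.14, and C6orf89, −0.61). Near CDKN2A and CDKN2B, 1 of 7 was higher (DMRTA1, 1.20) and 1 lower (AL359922.3, −1.45, and −0.79 without vehicle replicate 3, its highest library), and MTAP, which is often deleted together with CDKN2A in tumours, was expressed at 214.9 CPM in vehicle and 259.5 CPM with TP-472 (adjusted p = 0.189 from edgeR). DMRTA1 averaged 0.971 CPM in vehicle and 2.24 CPM with TP-472, so it too entered the test through the TP-472 libraries.

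CDKN2AIP, which encodes a protein that binds ARF and is not itself a CDK inhibitor, was singled out after its values were seen. It was at 18.3, 21.7, 12.9 and 20.7 CPM in vehicle replicates 1 to 4 and at 38.8, 41.7, 45.9 and 42.5 CPM in TP-472 replicates 1 to 4, with no overlap (2.29-fold, adjusted p = 0.00107 from edgeR).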
